A study of Mus musculus with 4 samples.

Results

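Complex I (NADH:ubiquinone oxidoreductase) is the entry point of the mitochondrial respiratory chain. Its peripheral arm stands in the mitochondrial matrix, takes electrons from NADH at a flavin and passes them along iron-sulfur clusters to ubiquinone. Its membrane arm pumps protons across the inner membrane. Heart muscle depends on it, because most of the ATP of the beating heart comes from oxidative phosphorylation. The enzyme is built from catalytic core subunits, some encoded in the nucleus and some in mitochondrial DNA, and from many accessory subunits that surround the core.

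The genes described here were all nuclear genes whose symbol begins with Ndufa, Ndufb, Ndufc, Ndufs or Ndufv and a digit, with Ndufab1 added. Assembly factors, pseudogenes, Ndufa4 and Ndufa4l2 were left out. The rule gave 37 genes of the 25044 in the tables. Ndufb1 and the subunits encoded in mitochondrial DNA were not analysed here.

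The study sequenced poly(A) RNA of mouse hearts in 4 libraries, and every library was a pool of 3 hearts from animals aged 12 weeks. The hypertrophic (HCM) pair sets dC10mut, from cMyBP-CΔC10mut mice that carry a 25bp variant MYBPC3 transgene, against nontransgenic mice (NTG), both with the strain label C57BL/6. The dilated (DCM) pair sets tt, from cMyBP-C(t/t) mice, against control mice, both with the strain label FvB/N. Mybpc3 encodes the cardiac form of myosin binding protein C, which sits on the thick filaments of heart muscle. The promoter of the transgene, the number of founder lines and the sex of the animals are not given in the sources used here. With 1 library per group there was no replicate check, and all intervals below are 95% intervals for counting error only. These intervals do not cover differences between animals.

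The libraries were shallow, with totals between 170543 and 187365 counts. One count was worth between 5.19 and 6.23 CPM (counts scaled to library size). Mybpc3 held 344 (NTG), 368 (dC10mut), 266 (control) and 412 (tt) counts, and as the rows do not separate alleles this does not check the genotypes. The cardiac genes Myl2, Actc1 and Tnni3 were abundant in every library, while Tnnt2, with 9 transcripts in the tables, was listed at 0 throughout. Tsix, antisense to the X-inactivation gene Xist, was listed at 0 in both control libraries and held 147 (dC10mut) and 159 (tt) counts in the mutant ones, so the sex of the pools and the genotype cannot be told apart. Of the 10 rows with the most counts, 8 faced an exon of another gene on the opposite strand. Map3k15 held 11983 counts in NTG and Pdha1, the pyruvate dehydrogenase subunit gene opposite it, held 121. A930016O22Rik held 7272 counts in NTG and the muscle creatine kinase gene Ckm, opposite it, held 342. The kit keeps the strand of each RNA, but the strand option used in counting is not given in the sources used here. Genes with an opposite-strand exon held between 64.4% (tt) and 68.1% (NTG) of the counts. In dC10mut, Tsix held 147 counts and Xist 8, and Mhrt held 6620 and Myh7, opposite it, 11. Whether the counted strand was that of the transcripts was not tested, and reads of a gene and of its opposite-strand partner cannot be told apart. The counts of every member, also of those with no opposite-strand exon, are levels of its transcript only if it was.

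Promoter sequences are shown for 4 members whose ratios in both pairs lay farther apart than counting error and span both motif-bearing and motif-free cases. Each is the 120 bases before the annotated start (RefSeq, GRCm38.p6). Matches to the motifs searched are in capitals where they lie wholly within these bases. A GGGCGG match of Ndufa8 that begins just before its printed stretch is not marked.
Ndufa6, chr15:82354292-82354411, minus strand: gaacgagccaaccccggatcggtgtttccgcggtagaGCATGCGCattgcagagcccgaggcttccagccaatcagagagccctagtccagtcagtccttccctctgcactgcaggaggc
Ndufa8, chr2:36049339-36049458, minus strand: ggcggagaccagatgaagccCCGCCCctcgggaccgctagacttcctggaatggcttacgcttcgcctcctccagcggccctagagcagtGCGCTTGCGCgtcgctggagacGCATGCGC
Ndufb3, chr1:58586277-58586396, plus strand: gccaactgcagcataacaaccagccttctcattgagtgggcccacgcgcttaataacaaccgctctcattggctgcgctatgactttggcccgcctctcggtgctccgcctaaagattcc
Ndufc2, chr7:97399883-97400002, plus strand: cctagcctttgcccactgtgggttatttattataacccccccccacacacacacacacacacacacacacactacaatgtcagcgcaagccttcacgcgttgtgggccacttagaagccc

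Motifs were searched on both strands of the 250 bases before the start, in the 32 members with a promoter in the table. NRF1, a regulator of nuclear genes for mitochondrial proteins, was represented by its full consensus and by GCATGCGC, which can overlap each other. One or the other was present in 7 of the 32 members (21.9%) and in 5.7% of all 27025 genes with a promoter. Of these members, 4 held a count: Ndufa6, Ndufa8, Ndufa11 and Ndufb4. The ETS motif of GABPA, CCGGAAG, was present in 3 members (9.4%) and in 7.8% of all genes, and the SP motif GGGCGG in 14 members (43.8%) and in 35.4%. The motif of the estrogen-related receptors, AAGGTCA, was present in 3 members (9.4%) and in 4.7% of all genes. The YY1 motif was present in 0 members and in 0.4% of all genes. Ndufb3 and Ndufc2, which had the widest gaps between the pairs among members with at least 10 counts in both, held none of these motifs in the window searched. A match is a description of the letters only.

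Of the 37 genes, 25 held a count in at least 1 library and 12 were listed at 0 in all 4. A count of 0 allows up to 3 counts, or between 15.6 and 18.7 CPM in these libraries. The number of transcripts listed per gene went with this split. Of 23 members with 1 transcript, 21 held a count, and of 14 members with several transcripts, 4 did. Over all genes, 45.4% of those with 1 transcript and 19.8% of those with several held a count. The split was not complete in other respiratory genes with several transcripts: Cox4i1, a cytochrome c oxidase subunit, held 0, 0, 0 and 1 counts, and Atp5k, an ATP synthase subunit, held 26, 42, 30 and 27. The zeros are therefore given as listed and are not read as absence from the heart; the way the counting treated reads shared between transcripts was not tested. The members at 0 with several transcripts were Ndufa5, Ndufa7, Ndufa12, Ndufb2, Ndufb11, Ndufs1, Ndufs6, Ndufs7, Ndufs8 and Ndufv2. Those with 1 transcript were Ndufb4c and Ndufs5. Ndufs5 has a pseudogene, Ndufs5-ps, that held between 21 and 40 counts per library; whether reads of Ndufs5 were counted there was not tested.

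The zeros took out much of the catalytic core. Of the nuclear core subunits, 4 were listed at 0: Ndufs1, Ndufs7, Ndufs8 and Ndufv2, which all encode iron-sulfur proteins of the peripheral arm. Of 16 peripheral arm members, 8 held a count, and of 19 membrane arm members, 16 did. The summed level of complex I described below is thus weighted towards accessory subunits of the membrane arm.

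Summed over all members, complex I was highest in dC10mut and lowest in tt. The summed counts were 956 (NTG), 1388 (dC10mut), 1130 (control) and 964 (tt). As a share of the library this was 0.561% in NTG (exact binomial interval 0.526 to 0.597), 0.741% in dC10mut (0.703 to 0.781), 0.640% in control (0.603 to 0.678) and 0.517% in tt (0.485 to 0.551). The interval of dC10mut lay above those of the other libraries. The interval of control lay above that of tt and just above that of NTG, while those of NTG and tt overlapped. After scaling, the levels were 5961, 7412, 6212 and 5006 CPM in the same order. The scaled levels of NTG and control lay closer together than their shares, and no interval was computed between them. The dC10mut to NTG log2 ratio of the sums was 0.31 (0.19 to 0.43), a 1.24-fold higher level, and the tt to control log2 ratio was -0.31 (-0.44 to -0.19). Without the 3 members with the most counts, an alternative added after the data were seen, the log2 ratio of the HCM pair was 0.47 and that of the DCM pair -0.30.

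In bulk hearts, fewer cells of a type and less RNA per cell cannot be told apart. Markers of heart muscle cells, of which 7 of 8 held a count, summed to 28487 (NTG), 34795 (dC10mut), 27461 (control) and 25776 (tt) CPM, which are log2 ratios of 0.29 (HCM) and -0.09 (DCM). Endothelial markers (6 of 8 with a count, Pecam1 and Egfl7 at 0) summed to 1471, 1308, 1539 and 753 CPM in the same order. Fibroblast markers (7 of 8, Postn at 0) summed to 318, 219, 390 and 203 CPM, and macrophage markers (6 of 8, Cd163 and Adgre1 at 0) to 112, 256, 253 and 93.5 CPM. Smooth muscle and pericyte markers (4 of 7, with Myh11, Pdgfrb and Kcnj8 at 0) summed to 829, 967, 968 and 795 CPM. Of the atrial markers only Nppa held a count, and it summed to 56.1, 118, 330 and 83.1 CPM. In the HCM pair the interval of the summed log2 ratio lay above equality for muscle (0.23 to 0.34) and macrophage markers (0.38 to 2.06). It included equality for endothelial (-0.43 to 0.09), fibroblast (-1.17 to 0.08), smooth muscle (-0.11 to 0.56) and atrial markers (-0.11 to 2.37). Within the muscle list of the HCM pair Myl2 (0.33), Actc1 (0.41) and Tnni3 (0.24) were higher in dC10mut. Myl2 gave 3520 of the 6516 muscle marker counts in dC10mut. Mybpc3 (-0.13, -0.34 to 0.09) and Ryr2 (-0.06, -0.42 to 0.29) lay below 0, within counting error. Lyz2 gave 6 of the 18 macrophage counts in NTG and 28 of the 48 in dC10mut, and the smooth muscle list held both Acta2 (log2 ratio 1.70) and Notch3 (-1.80). In the DCM pair the interval lay below equality for all of these lists except smooth muscle (-0.61 to 0.04). Lyz2 gave 28 of the 46 macrophage counts in control and 5 of the 18 in tt. Within the muscle list of that pair Myl2 (-0.14) and Tnni3 (-0.32) were lower in tt, while Mybpc3 (0.55, 0.32 to 0.78) and Ryr2 (0.43, 0.11 to 0.75) were higher. Their part in the complex I values was not tested. Fat and brown fat markers were near 0 (at most 8 counts in a library, with Ucp1, Adipoq and Plin1 at 0), and of the skeletal muscle list only Ckm and 1 count of another gene were present.

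**Figure D1:**
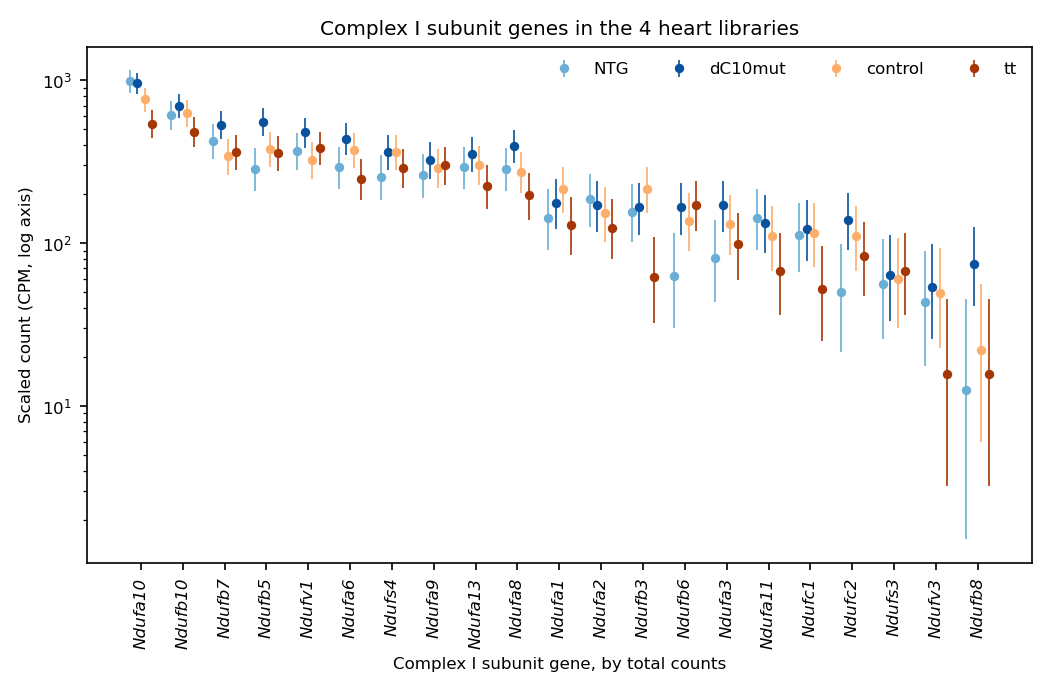
Scaled counts (CPM, log axis) of 21 complex I subunit genes with at least 10 counts in a library of either pair, 1 point per library with its exact 95% Poisson interval. The dC10mut point is the highest of the 4 for 14 genes and the tt point the lowest for 11.

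Per kilobase of transcript, high levels averaged over the 4 libraries were those of Ndufb10 (827 CPM per kb), Ndufb7 (667), Ndufa6 (574) and Ndufa10 (402). Ndufb10 and Ndufb7 encode subunits of the membrane arm with cysteine motifs that face the intermembrane space. Ndufs3, a core subunit of the ubiquinone module, stood at 59.3 CPM per kb. A level per kb compares genes here only as far as the counting treated them alike.

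The HCM pair asks how the hearts with the variant transgene differ from nontransgenic hearts. Complex I members were more often above than below equality: 19 of the 22 members with at least 10 counts in a library had a log2 ratio above 0, where 50.3% of all such genes did, and 3 had one below 0 (49.7%). Their median log2 ratio was 0.30, against 0.0082 over all 2114 genes at that minimum and 0.19 over those with no opposite-strand exon, of which 60.8% lay above 0. The counting interval lay above equality for 6 of the 22 (9.65% of all such genes) and below it for 0 (15.6%). With at least a 2-fold difference and an interval that excludes equality, 4 members were higher in dC10mut, where 1.81% of 8033 genes were, and 0 were lower, where 2.53% were. These percentages are no like-for-like baseline: 2114 of the 8033 genes reach 10 counts, and 22 of the 25 members with a count do. Among genes outside the respiratory chain lists, under 1000 bp and with no opposite-strand exon, 443 held a count and 89 reached 10. Of these genes 13 were called higher in dC10mut and 6 lower. Of the 4 members called higher, 2 have no opposite-strand exon. With scaling factors from genes with no opposite-strand exon, an alternative added after the data were seen, the median was 0.19 and the summed ratio 0.20, and Ndufb3, close to 0 here, lies below it. With a trend on transcript length removed as well, the median was -0.048, on the other side of equality.

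The 4 members at least 2-fold higher in dC10mut all encode accessory subunits of the membrane arm. Ndufb8 (chromosome 19, 44548571 to 44555442) held 2 (NTG), 14 (dC10mut), 4 (control) and 3 (tt) counts. Its log2 ratio was 2.34, with a wide interval from 0.46 to 5.76. It is the 1 called member with more than 1 transcript in the tables.

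Ndufc2 (chromosome 7, 97400003 to 97407800), which sits beside the mitochondrially encoded ND2 subunit, held 8 (NTG), 26 (dC10mut), 20 (control) and 16 (tt) counts. It was 2.69-fold higher in dC10mut (log2 ratio 1.43, 0.29 to 2.83), and NTG was the low library of the 4. Ndufb6 (chromosome 4, 40270591 to 40279421) held 10, 31, 25 and 33 counts in the same order, 2.58-fold higher in dC10mut (log2 ratio 1.37, 0.34 to 2.60). NTG was again the low library. Ndufa3 (chromosome 7, 3617347 to 3620165) held 13, 32, 24 and 19 counts, 2.07-fold higher (log2 ratio 1.05, 0.11 to 2.13). Ndufb6 faces an exon of Smim27 and Ndufa3 one of Tfpt; these partners held at most 4 and 0 counts in a library.

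Ndufb5 (chromosome 3, 32737057 to 32751559), a membrane arm subunit with a single membrane-spanning helix, was the deepest member with an interval above equality. It held 46 (NTG), 104 (dC10mut), 69 (control) and 69 (tt) counts, which is 1.93-fold in the HCM pair (log2 ratio 0.95, 0.44 to 1.49). Here dC10mut was the high library and NTG the low one, with both libraries of the other pair alike. It faces Mrpl47, which held between 1 and 7 counts per library.

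Ndufa6 (chromosome 15, 82350139 to 82354291), a peripheral arm subunit of the LYR family that binds the mitochondrial acyl carrier protein, held 47 (NTG), 82 (dC10mut), 68 (control) and 48 (tt) counts. Its HCM log2 ratio was 0.57 (0.04 to 1.13). Ndufs4, whose loss causes mitochondrial disease with Leigh syndrome, held 41, 68, 66 and 56 counts (log2 ratio 0.50, -0.07 to 1.10), and Ndufa8 held 46, 74, 50 and 38 (0.46, -0.09 to 1.03). The intervals of Ndufs4 and Ndufa8 include equality.

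Ndufa10 and Ndufb10, both abundant, had intervals that include equality in this pair, unlike Ndufb5 above. Ndufa10, a membrane arm subunit with a nucleoside kinase fold, went from 158 counts (NTG) to 180 (dC10mut), a log2 ratio after scaling of -0.04 (-0.35 to 0.28). Ndufb10 held 98 and 131 (0.19, -0.19 to 0.59). These intervals exclude a 2-fold difference in either direction. The core subunits Ndufv1 and Ndufs3 had log2 ratios of 0.38 (-0.10 to 0.88) and 0.18 (-1.18 to 1.62); Ndufv1 encodes the subunit that binds NADH and the flavin. Among members with at least 10 counts, those below equality were Ndufa2, Ndufa11 and Ndufa10, none lower than -0.13.

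**Figure D2:**
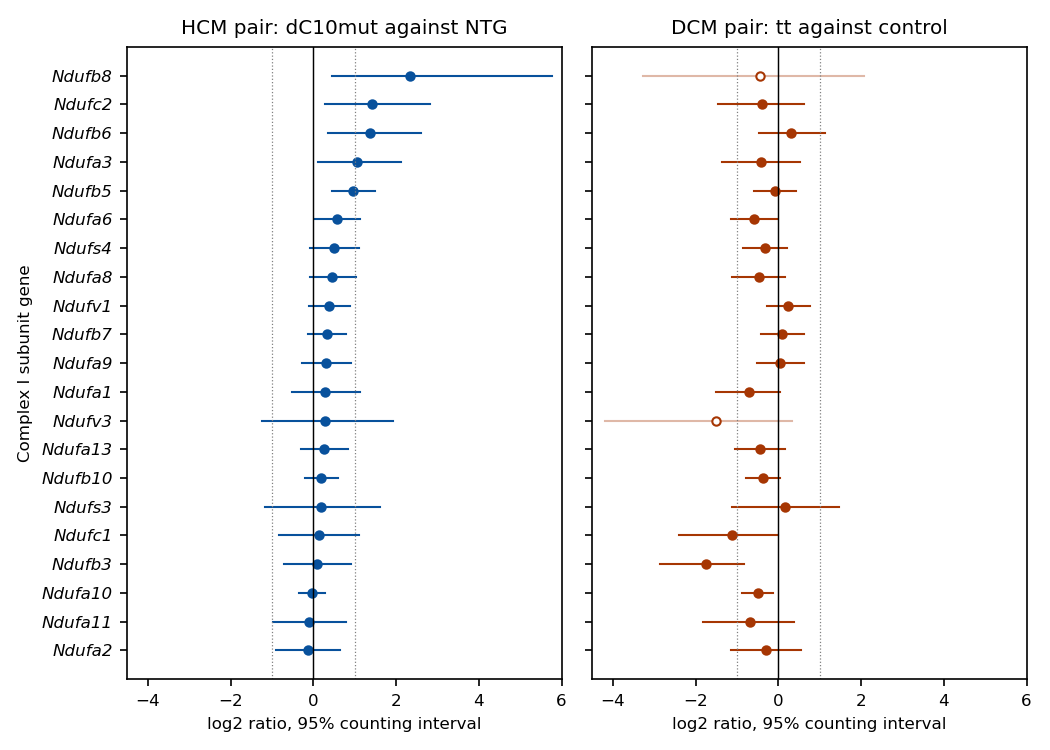
Log2 ratios (x axis) of 21 complex I subunit genes (y axis) with 95% counting intervals, left for dC10mut against NTG and right for tt against control; dotted lines mark a 2-fold difference and open points have under 10 counts in both libraries of the pair. In the HCM pair 18 of 21 filled points lie right of 0, and in the DCM pair 14 of 19 lie left of it.

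The DCM pair asks how hearts of cMyBP-C(t/t) mice differ from their controls. Complex I members lay mostly on the other side of equality here: 15 of the 20 members with at least 10 counts in a library had a log2 ratio below 0, where 50.2% of all such genes did, and 5 had one above 0 (49.8%). Their median log2 ratio was -0.38, against -0.0043 over all 2253 genes. The counting interval lay below equality for 4 members (13.4% of all such genes) and above it for 0 (12.8%). With at least a 2-fold difference and an interval that excludes equality, 2 members were lower in tt, where 1.58% of 8248 genes were, and 0 were higher, where 2.7% were. Here too the baseline is not like for like, as 2253 of the 8248 genes reach 10 counts. Among genes outside the respiratory chain lists, under 1000 bp and with no opposite-strand exon, 440 held a count and 86 reached 10. Of these genes 9 were called lower in tt and 7 higher.

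Both members at least 2-fold lower in tt encode small subunits of the membrane arm. Ndufb3 (chromosome 1, 58586397 to 58595964) held 25 (NTG), 31 (dC10mut), 39 (control) and 12 (tt) counts, and was 3.34-fold lower in tt than in control (log2 ratio -1.74, -2.85 to -0.82). The tt library was the low one of the 4. Ndufc1 (chromosome 3, 51405479 to 51408955), the member with the shortest transcript at 315 bp, held 18 (NTG), 23 (dC10mut), 21 (control) and 10 (tt) counts. It was 2.16-fold lower (log2 ratio -1.11), and the upper end of its interval, -0.0032, lies next to equality. With library totals or DESeq2 size factors for scaling 1 member was at least 2-fold lower in place of 2.

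Ndufa10 was the deepest member with an interval below equality, with 139 (control) and 104 (tt) counts (log2 ratio -0.50, -0.88 to -0.12). Ndufa6 held 68 and 48 counts (-0.58, -1.15 to -0.03). Ndufb3, Ndufc1, Ndufa10 and Ndufa6, the 4 members with intervals below equality, have no opposite-strand exon. Ndufa11 had 20 (control) and 13 (tt) counts (-0.68, -1.83 to 0.38), Ndufa8 held 50 and 38 (-0.47, -1.13 to 0.16), and Ndufa13, also known as GRIM-19, held 55 and 43 (-0.43, -1.05 to 0.16). The intervals of these 3 include equality.

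The core subunits Ndufv1 and Ndufs3 lay above equality, within counting error. Ndufv1 had 59 (control) and 74 (tt) counts (log2 ratio 0.24, -0.27 to 0.76). Ndufs3 held 11 and 13 (0.15, -1.12 to 1.46). The difference between core and accessory subunits was not tested. By arm, the summed log2 ratio was -0.17 (-0.37 to 0.03) for the peripheral arm and -0.40 (-0.56 to -0.23) for the membrane arm. In the HCM pair the same sums gave 0.26 (0.07 to 0.46) and 0.35 (0.20 to 0.50).

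Ndufa1, which encodes a small membrane subunit, and Ndufb11 are the X-linked members. Ndufa1 (chromosome X, 37187588 to 37191238) held 23 (NTG), 33 (dC10mut), 39 (control) and 25 (tt) counts. The HCM log2 ratio was 0.29 (-0.51 to 1.13) and the DCM one -0.71 (-1.51 to 0.04). Both intervals include equality. Tsix and Xist counts separated the same libraries, and any part of the sex of the pools in the Ndufa1 values was not tested. Ndufb11 was listed at 0.

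The pairs share no library, so the gap between them can be read gene by gene. Over the 20 members with at least 10 counts in a library of each pair, the HCM log2 ratio exceeded the DCM log2 ratio in 20, where 48.0% of 1891 genes did so. The median gap was 0.76, against -0.04 over all those genes. Other genes under 1000 bp with no opposite-strand exon lay on the same sides, with medians of 0.44 (HCM) and -0.45 (DCM). With a linear trend on length removed, the members' median gap was 0.48. With trend and scaling both from genes with no opposite-strand exon, the members' medians were -0.048 and -0.075. Whether the members' gap differs from that of other short genes was not tested. Ratios above 0 in the HCM pair and below 0 in the DCM pair were found for 12 of the 20, and for 22.8% of all such genes. Above 0 in both pairs were 5 members, and below 0 in both were 3. The shares of all genes in these 2 classes were not computed. The counting interval of the gap, by a normal approximation, excluded 0 for 8 members. This interval was not computed for other genes, so no share over all genes stands beside the 8. The gap was widest for Ndufb3 at 1.83 (0.64 to 3.01) and Ndufc2 at 1.82 (0.36 to 3.27), and smallest among the 8 for Ndufb10 at 0.57 (0.02 to 1.11). With 1 library per group the conditions themselves could not be tested for this gap.

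A difference common to both mutants was the 1 contrast with more than 1 library per side, as 2 mutant and 2 control libraries with the pair as a block. The mutants differ in genotype and strain label, so they do not replicate a condition. Tsix was at 0 in both control libraries and present in both mutant ones, so sex of the pools cannot be told apart from this contrast. It asks for a shift in the same direction, while 12 of 20 members had opposite signs in the pairs. edgeR's quasi-likelihood test with Benjamini-Hochberg adjustment called 0 of the 25 members with counts, where 0.245% of 7360 genes were called. At an unadjusted p under 0.05 it called 0 members (4.48% of genes). The smallest p was that of Ndufb3, 0.0875 (edgeR, adjusted p = 0.997). DESeq2 called 0 of all 7360 genes, members included, so its result does not set the members apart. The smallest adjusted p of a member lay between 0.996 and 0.999 over the alternatives of this test.

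Transcript length moved with the ratios of both pairs. Complex I transcripts are short, with a median of 748 bp over the 22 members with at least 10 counts and a range from 315 to 2020 bp. Among other genes with no opposite-strand exon and no role in the respiratory chain lists, those under 1000 bp had a median log2 ratio of 0.44 in the HCM pair, with 64 of 89 above 0. Those from 1000 to 2000 bp had a median of 0.38, those from 2000 to 4000 bp 0.12 and those of 4000 bp or more -0.01. In the DCM pair the same classes had medians of -0.45, -0.18, 0.05 and 0.32, with 61 of 86 genes below 0 in the shortest class. The sign of the slope was thus opposite in the pairs. Within complex I the Spearman correlation of length and ratio was -0.06 in the HCM pair (22 members), close to none. It was 0.40 in the DCM pair (20 members).

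Complex I members of this length had medians close to those classes. The 13 members under 1000 bp had a median of 0.33 in the HCM pair, below the 0.44 of other short genes. The 12 such members with at least 10 counts in the DCM pair had -0.44, against -0.45. With no opposite-strand exon, 9 of 9 short members were above 0 in the HCM pair (median 0.33) and 7 of 8 below 0 in the DCM pair (median -0.53).

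With a linear trend on log2 length removed, the medians over all members were 0.17 and -0.23. With the trend and the scaling both taken from genes with no opposite-strand exon, an alternative added after the data were seen, they were -0.05 and -0.07. Farthest from the median of their length class were Ndufb8 in the HCM pair and Ndufb3 in the DCM pair. The part of transcript length in the complex I values was not tested further.

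**Figure D3:**
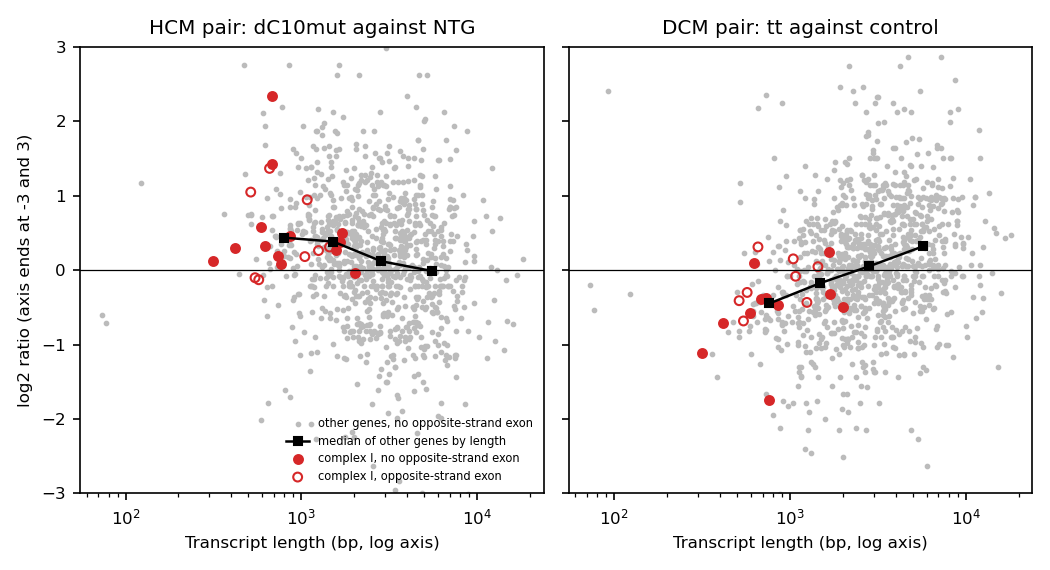
Log2 ratio against transcript length (log axis) for genes with at least 10 counts, left for the HCM pair and right for the DCM pair; grey points are other genes with no opposite-strand exon, black squares their medians by length class and red points complex I members (open where an opposite-strand exon is annotated). The black line falls from 0.44 to -0.01 in the HCM pair and climbs from -0.45 to 0.32 in the DCM pair, and the red points lie around it; genes beyond 3 on the axis are not drawn.

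The other respiratory complexes also had medians above 0 in the HCM pair, and medians on both sides of 0 in the DCM pair. Median log2 ratios in the HCM pair were 0.46 for complex II (3 genes with at least 10 counts), 0.46 for complex III (7), 0.47 for complex IV (10) and 0.46 for ATP synthase (7). In the DCM pair they were 0.15, -0.13, -0.21 and -0.08. The summed DCM log2 ratios were 0.45 (0.19 to 0.71), -0.13 (-0.29 to 0.02), -0.19 (-0.33 to -0.06) and 0.15 (0.05 to 0.26), so for ATP synthase the sum and the median differed in sign. Cox8b, the heart and muscle form of a complex IV subunit, was the 1 gene of these lists at least 2-fold apart with an interval that excludes equality (37 and 96 counts, higher in dC10mut, log2 ratio 1.14). Sdha, the flavoprotein of complex II, had 136 (control) and 224 (tt) counts (0.64, 0.32 to 0.96). Sdhd, a membrane anchor of the same complex, held 31 and 68 in the HCM pair (0.90, 0.28 to 1.57). Uqcr11 of complex III held 15 and 29 in the HCM pair and 19 and 10 in the DCM pair (0.71 and -0.97, both intervals including equality). Atp5j2 of ATP synthase held 66 and 127 in the HCM pair (0.72, 0.28 to 1.17) and Atp5a1 held 389 and 593 in the DCM pair (0.53, 0.34 to 0.71).

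Matrix enzymes that make the NADH used by complex I had a median of 0.41 in the HCM pair, with 9 of 9 genes above 0, and of 0.31 in the DCM pair, with 6 of 9 above 0. In the DCM pair this is the opposite side of equality from complex I. The transcripts also differ in length. Those of the enzymes with no opposite-strand exon range from 1456 (Mdh2) to 4035 bp (Dlat), and the complex I median is 748 bp. Other genes had DCM medians of -0.45 under 1000 bp, -0.18 from 1000 to 2000 bp, 0.05 from 2000 to 4000 bp and 0.32 above. The part of length in this contrast was not tested. Hadh, a dehydrogenase of fatty acid oxidation, was at least 2-fold higher in dC10mut (47 and 140 counts, log2 ratio 1.34), and Dlst, of the 2-oxoglutarate dehydrogenase complex, held 34 and 76 (0.93, 0.34 to 1.57). Pdha1, which faces Map3k15, had 150 (control) and 228 (tt) counts (0.52, 0.22 to 0.83). Of 16 complex I assembly factors, 11 held a count and only Ndufaf4 reached 10, at 9 and 24 counts in the HCM pair (1.15, 0.04 to 2.48) and 14 and 17 in the DCM pair. Among regulators of mitochondrial biogenesis, Esrra held 12 and 27 counts in the HCM pair (0.92, -0.08 to 2.06) and Tfam 5 and 11 in the DCM pair (0.99, -0.59 to 2.93). None of the 12 regulators was at least 2-fold apart under the rule in either pair.

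**Figure D4:**
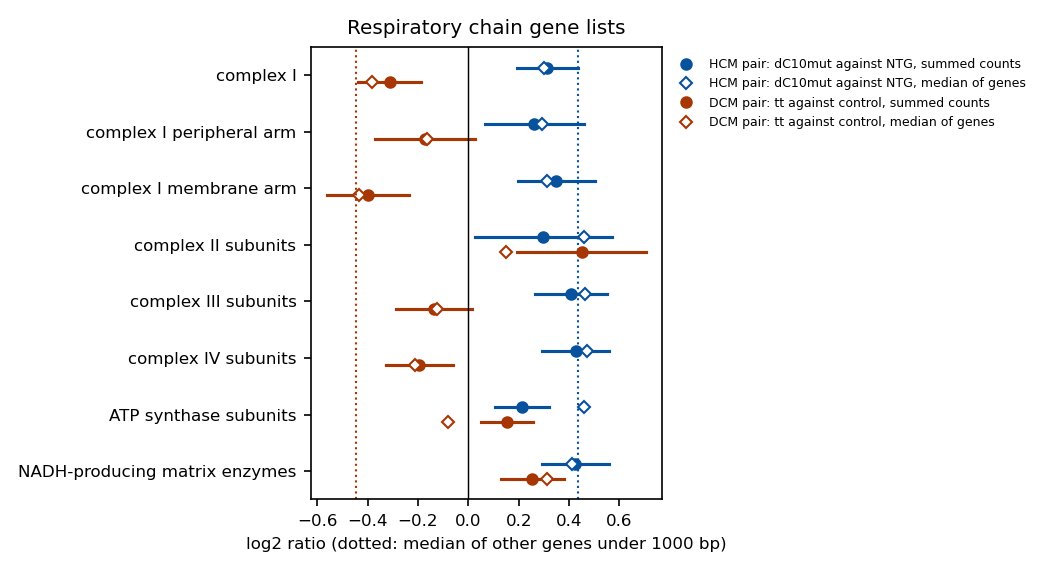
Log2 ratios of complex I, its arms, the other respiratory complexes and NADH-producing matrix enzymes in the HCM pair (blue) and the DCM pair (brown); filled points are ratios of summed counts with 95% counting intervals, open diamonds are medians of genes with at least 10 counts, and dotted lines are the medians of other genes under 1000 bp. Complex I lies at 0.31 and -0.31 as sums and at 0.30 and -0.38 as medians. The dotted lines, which are medians, lie at 0.44 and -0.45. As sums, the same other genes gave 0.28 and -0.30, close to the complex I sums.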

How the data were processed

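Per the labels' protocols, mRNA was captured from total RNA on poly-T beads and made into strand-marked libraries. The submitters' processing notes name mm10, STAR and HTSeq; no version, counting mode or strand option is given in the sources used here. What the authors deposited are unnormalized whole-number counts, 1 row per RefSeq transcript. Of 41449 transcripts, 41252 matched a symbol in RefSeq's GRCm38.p6 table, and counts were summed per symbol. Transcript lengths and opposite-strand exons (overlap of any length) came from GENCODE M21 (GRCm38), using bedtools 2.31.1.

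Counts were scaled with TMM factors (edgeR 4.0.16; between 0.940 and 1.03). Log2 ratios used a prior count of 0.5, and intervals are exact conditional binomial intervals for counting error; PCR copies are not independent molecules. A gene was called when at least 2-fold apart with an interval that excludes equality; medians used genes with at least 10 counts in a library of the pair. The common difference was fitted with edgeR, and with DESeq2 1.42.0 as an alternative, over genes that reach 1 CPM in 2 or more libraries. The procedures were tested on simulated data.

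The members and lists were chosen with earlier results of these data known. Members named with full values were those called, the largest ratios of each pair, core subunits, the X-linked members and the highest levels per kb; from the other lists, called genes and the largest ratios.

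The alternatives tried were other scalings, count minimums and prior counts, a length trend, and members by opposite-strand exon or transcript number. The values of 1 member are not reported here, though sums and counts over the members include it.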

Additional observations from a re-analysis of the deposited data

Results flagged for a closer look

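The summed complex I counts lay on opposite sides of equality in the pairs, with log2 ratios of 0.31 (HCM) and -0.31 (DCM). The difference between the conditions was not tested. Other genes under 1000 bp with no opposite-strand exon summed to similar ratios of 0.28 and -0.30. For 8 members the ratios had opposite signs and the counting interval of the gap (HCM minus DCM) excluded 0. The share of all genes that do so was not computed. The gaps on the log2 scale were 1.83 for Ndufb3, 1.82 for Ndufc2, 1.46 for Ndufa3, 1.15 for Ndufa6, 1.03 for Ndufb5, 0.93 for Ndufa8, 0.82 for Ndufs4 and 0.57 for Ndufb10, and these too were not tested between conditions. The pseudogene Ndufs5-ps, outside the members, held 28 (NTG), 31 (dC10mut), 40 (control) and 21 (tt) counts, while Ndufs5 itself was listed at 0.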

How the results depend on the processing

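A median or sum counts as moved here when it shifts by more than the counting interval of the summed ratio allows, and a count when it shifts by more than 1.5 times. With the length trend removed, the median log2 ratios were 0.17 (HCM) and -0.23 (DCM), the median gap between the pairs 0.48, and 1 member was at least 2-fold apart in the DCM pair. With the trend and scaling from genes with no opposite-strand exon, added after seeing the data, the medians were -0.048, a reversed sign, and -0.075. With only members that have no opposite-strand exon, 2 were at least 2-fold apart in the HCM pair and 2 of 12 lay above 0 in the DCM pair, where fewer members enter. Without the 3 deepest members the HCM summed log2 ratio was 0.47. In the DCM pair, 1 member was at least 2-fold apart with library totals, 1 with DESeq2 size factors and 4 with no rule on the interval. Every other alternative run for these results kept its direction and stayed within those limits. The limit for a count is wide. With the length trend removed, 14 of 22 members lay above 0 in the HCM pair in place of 19. In the DCM pair 6 of 20 lay above 0 in place of 5. The test of a difference common to both mutants had the pair as a block. No paired analysis was possible because, within a pair, each group has 1 library with no replicate number; no replicate could be left out there. Depth limits the members under about 10 counts, whose intervals span several-fold.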

Other observations

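Ndufa4, which the rule leaves out because its product belongs to complex IV, held 127 (NTG), 234 (dC10mut), 168 (control) and 170 (tt) counts. Its log2 ratio was 0.66 (0.34 to 0.98) in the HCM pair and -0.07 (-0.38 to 0.25) in the DCM pair, and NTG was the low library.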
